A study of Homo sapiens with 18 samples.

Results

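Genes that mark serous ovarian carcinoma cells were followed through short and long exposure to 2 BET inhibitors. The set held 10 genes of the 58825 in each count table: the 5 lineage transcription factors PAX8, SOX17, WT1, MECOM and EMX2, and the 5 clinical marker genes MUC16, WFDC2, MSLN, FOLR1 and MUC1. They were listed by name as known lineage and marker genes, and all 10 were found by matching the Ensembl identifiers of both tables to symbols. Each had at least 130 counts in every one of the 18 libraries and was tested in every comparison.

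The cells were OVCAR-3, an established line of high-grade serous ovarian carcinoma, grown in RPMI 1640 medium in multi-well plates and treated in stripped medium. Vehicle (DMSO), i-BET858 at 1 µM or i-BET151 at 1 µM was given for 4 h or 24 h, and poly-A RNA was sequenced from 3 biological replicates of each of the 6 conditions. All libraries came from the same cell line, so p-values measure the spread between cultures of OVCAR-3 and not between tumours. Both drugs were compared with the same 3 DMSO libraries of a time point, and their changes are therefore given side by side.

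BET proteins bind acetylated histone tails through their bromodomains and recruit the machinery of transcriptional elongation, and BET inhibitors release them from chromatin. PAX8, SOX17, WT1, MECOM and EMX2 encode DNA-binding proteins. PAX8 and SOX17 are regulators of the Müllerian epithelium from which the fallopian tube derives, and pathologists stain for PAX8 and WT1 to recognise serous carcinoma. MUC16 carries the CA125 epitope and WFDC2 encodes HE4, both measured in the blood of patients, while MSLN (mesothelin), FOLR1 (folate receptor alpha) and MUC1 (a transmembrane mucin) are surface proteins against which antibody drugs have been raised.

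Libraries held 27323969 to 46299994 counts. The 6 libraries of replicate 3 stood apart, with a count in 17817 to 20642 genes, against 23674 to 24947 genes in replicates 1 and 2, and member results are therefore also given for replicates 1 and 2 alone. HEXIM1, the usual transcript marker of BET inhibition, rose in both drugs at both times, by 3.65-fold at 4 h and 3.38-fold at 24 h after i-BET858 and by 2.38-fold and 2.17-fold after i-BET151 (adjusted p at most 5.33e-05, edgeR quasi-likelihood test with Benjamini-Hochberg adjustment over all genes tested, as for all adjusted p below unless named). Of 10 leukocyte and endothelial markers 7, PTPRC, CD3E, CD68, MS4A1, LYZ, PECAM1 and CDH5, stayed under 1 CPM (the usual unit of counts scaled to library size) in all 18 libraries, as did 6 of 8 fibroblast markers, among them COL3A1, DCN and LUM, and 7 of 10 mesothelial markers, among them CALB2. Others were above that level. The endothelial receptor gene KDR reached 8.62 ± 3.11 CPM after i-BET858 at 4 h, the mesothelial marker UPK3B stood at 12.3 ± 6.34 CPM in DMSO at 24 h and was called lower in both drugs (adjusted p = 0.0467 and 0.0210), and the 8 fibroblast markers summed to between 21.5 and 51.2 CPM over all libraries. Their part in the results was not tested.

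Positions are from GENCODE 44 on GRCh38. PAX8 (ENSG00000125618.17) covers chr2:113215997-113278921 on the minus strand, and 1651 of its exon bases are shared with PAX8-AS1 on the other strand. WT1 (ENSG00000184937.14, chr11:32387775-32435564) shares 47 exon bases with WT1-AS, whose start is 46 bases away. MECOM (ENSG00000085276.18) is the longest locus, at chr3:169083499-169663775. EMX2 (ENSG00000170370.12, chr10:117542445-117549546) shares 348 exon bases with EMX2OS. The strand used in counting is not given in the sources used here, so reads of these 3 genes and of their antisense partners may not have been told apart. Among the clinical markers, MUC16 (ENSG00000181143.15) lies at chr19:8848844-9010390, WFDC2 (ENSG00000101443.18) at chr20:45469753-45481532, MSLN (ENSG00000102854.16) at chr16:760734-768865 and FOLR1 (ENSG00000110195.13) at chr11:72189558-72196323. MUC1 (ENSG00000185499.16) lies at chr1:155185824-155192916, and a gene model sharing 48 of its exon bases on the same strand had no count in any library.

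RefSeq gave a promoter window of 300 bases, 250 before the start and 50 after it, for 7 of the members (14 windows in all). SOX17, MSLN and FOLR1 had no window and were not searched. Upstream stretches free of annotated exons are shown for MUC1 and MECOM, the members called lower, and for WFDC2 and PAX8. WFDC2 moved in opposite directions at the 2 times when replicates were paired. PAX8 stayed closest to DMSO after 24 h of i-BET858 with all 3 replicates, though not in replicates 1 and 2 alone. Capitals mark matches to TATAAA, the TATA box, to GGGCGG, the GC box, and to CCAAT, on either strand, and the stretches are from GRCh38.p14: MUC1 from chr1:155192917-155193165 (minus strand), MECOM from chr3:169663776-169663962 (minus strand, upstream of the most distal of 3 starts), WFDC2 from chr20:45469503-45469752 (plus strand) and PAX8 from chr2:113278922-113279171 (minus strand).
MUC1: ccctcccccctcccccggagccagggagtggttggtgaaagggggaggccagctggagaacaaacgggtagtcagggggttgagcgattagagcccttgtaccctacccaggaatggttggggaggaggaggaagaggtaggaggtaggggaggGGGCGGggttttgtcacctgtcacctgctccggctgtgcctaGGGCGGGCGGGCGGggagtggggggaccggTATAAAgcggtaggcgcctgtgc
MECOM: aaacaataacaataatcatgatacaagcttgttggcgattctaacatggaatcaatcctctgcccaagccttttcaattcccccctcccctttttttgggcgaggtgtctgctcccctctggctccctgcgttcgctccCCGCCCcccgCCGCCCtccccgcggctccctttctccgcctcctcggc
WFDC2: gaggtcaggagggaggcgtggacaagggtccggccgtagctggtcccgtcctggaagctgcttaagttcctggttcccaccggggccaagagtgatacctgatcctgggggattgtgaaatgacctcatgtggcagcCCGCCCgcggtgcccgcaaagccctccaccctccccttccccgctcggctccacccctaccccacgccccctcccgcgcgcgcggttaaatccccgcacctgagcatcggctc
PAX8: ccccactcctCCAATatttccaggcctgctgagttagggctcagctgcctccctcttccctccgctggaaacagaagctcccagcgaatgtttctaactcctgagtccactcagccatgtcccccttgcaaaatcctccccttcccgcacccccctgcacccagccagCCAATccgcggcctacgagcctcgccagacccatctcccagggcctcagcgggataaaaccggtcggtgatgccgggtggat

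Searched on both strands, TATAAA occurred in 11.5% of the 35116 windows in the RefSeq table. Among the 7 members with a window it was found only in those of MUC1, where it began 24 bases before the first start. GGGCGG occurred in 45.0% of all windows and in windows of 6 of the 7 members, with 4 matches in MUC1, 3 of which overlap each other, and none in PAX8. CCAAT was present in 34.6% of windows and in those of PAX8, MECOM, EMX2 and MUC16. Of the other strings searched, TAATTA (4.84% of all windows) was found in EMX2 and WT1 and TGACTCA (4.95%) in WT1, while CACGTG (7.26%), GCGGGGGCG (5.07%) and TGACGTCA (1.85%) were in no member window. These are matches of letters within the window and not measured binding sites.

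In vehicle, the members spanned a wide range of levels. CPM, on TMM-scaled library sizes shared by all libraries, were divided by the length of each gene's merged exons so that genes could be compared. WFDC2 was highest in both sets of DMSO libraries, at 158 ± 50.4 CPM per kb at 4 h and 153 ± 66.3 at 24 h (mean ± SD, n = 3), and 1.22% of 18091 genes lay above it at 4 h. SOX17 followed with 68.0 ± 3.14 at 4 h. PAX8 (62.8 ± 9.38), MSLN (58.3 ± 12.4) and EMX2 (54.6 ± 6.94) came next, and in this run from SOX17 to EMX2 each gene's range overlapped that of the next. MUC1 (19.2 ± 4.84), WT1 (15.1 ± 0.37) and FOLR1 (13.2 ± 0.95) formed a middle group, in which MUC1 and WT1 overlapped. MUC16 (5.10 ± 2.38) and MECOM (4.68 ± 0.80) were lowest and overlapped. At 24 h MUC1 was lower in this order, below WT1 and FOLR1, with 12.4 ± 2.52 CPM per kb, and overlapped FOLR1. The last place went to MUC16, whose 3 libraries ran from 1.23 in replicate 3 to 6.82 and overlapped those of MECOM (5.10 to 5.69).

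**Figure D1:**
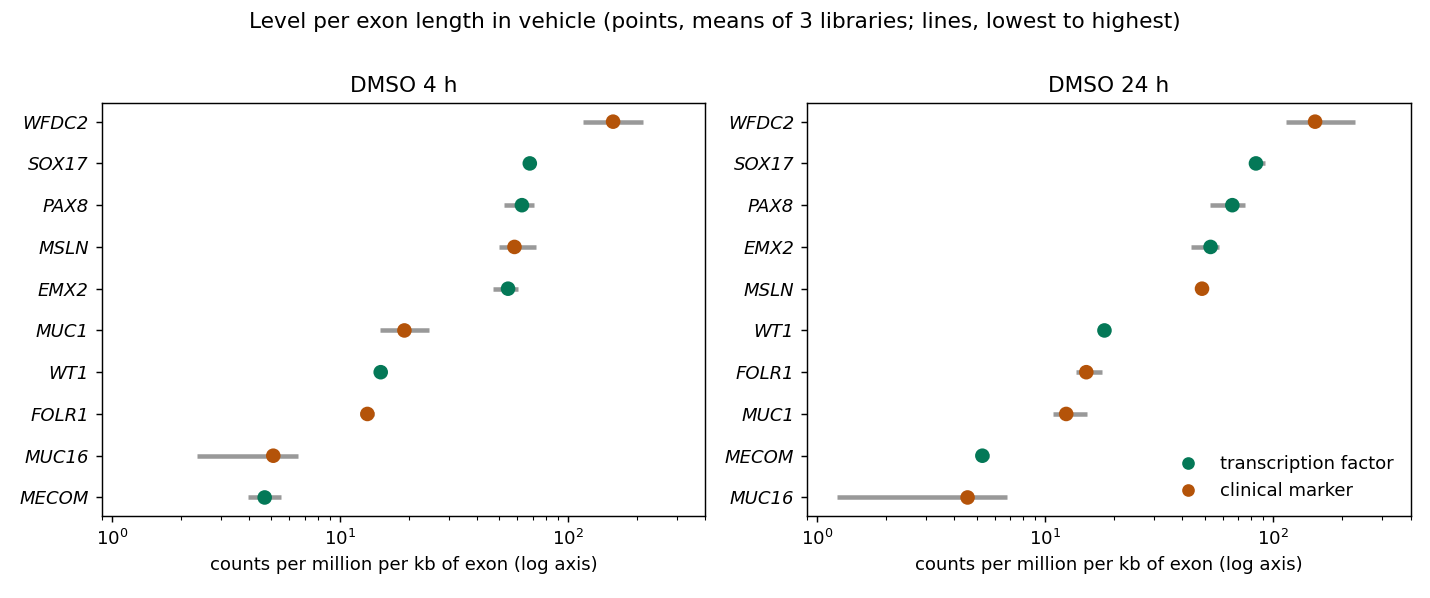
Level of each member in DMSO at 4 h and 24 h, in CPM per kb of exon on a log axis; points are means of 3 libraries, lines run from the lowest to the highest library, green marks transcription factors and orange marks clinical markers. WFDC2 is highest at both times, and the line of MUC16 is the longest.

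Time in vehicle alone moved no member past the threshold (0 of 10; 0.00551% of all genes tested were called and 0.0386% passed by adjusted p alone; 1 member, WT1, had an unadjusted p under 0.05 in edgeR, and DESeq2 called none). WT1 was 125, 124 and 119 CPM in DMSO at 4 h and 152, 147 and 145 at 24 h, higher in all 9 pairs of libraries, with a log2 difference of 0.27 (adjusted p = 0.365). MUC1 went from 43.4, 36.0 and 58.8 CPM to 26.2, 26.1 and 36.7, a log2 difference of -0.63 (95% interval -1.33 to 0.06, adjusted p = 0.609, or 0.0458 without the low-count filter), and its groups overlapped.

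**Figure D2:**
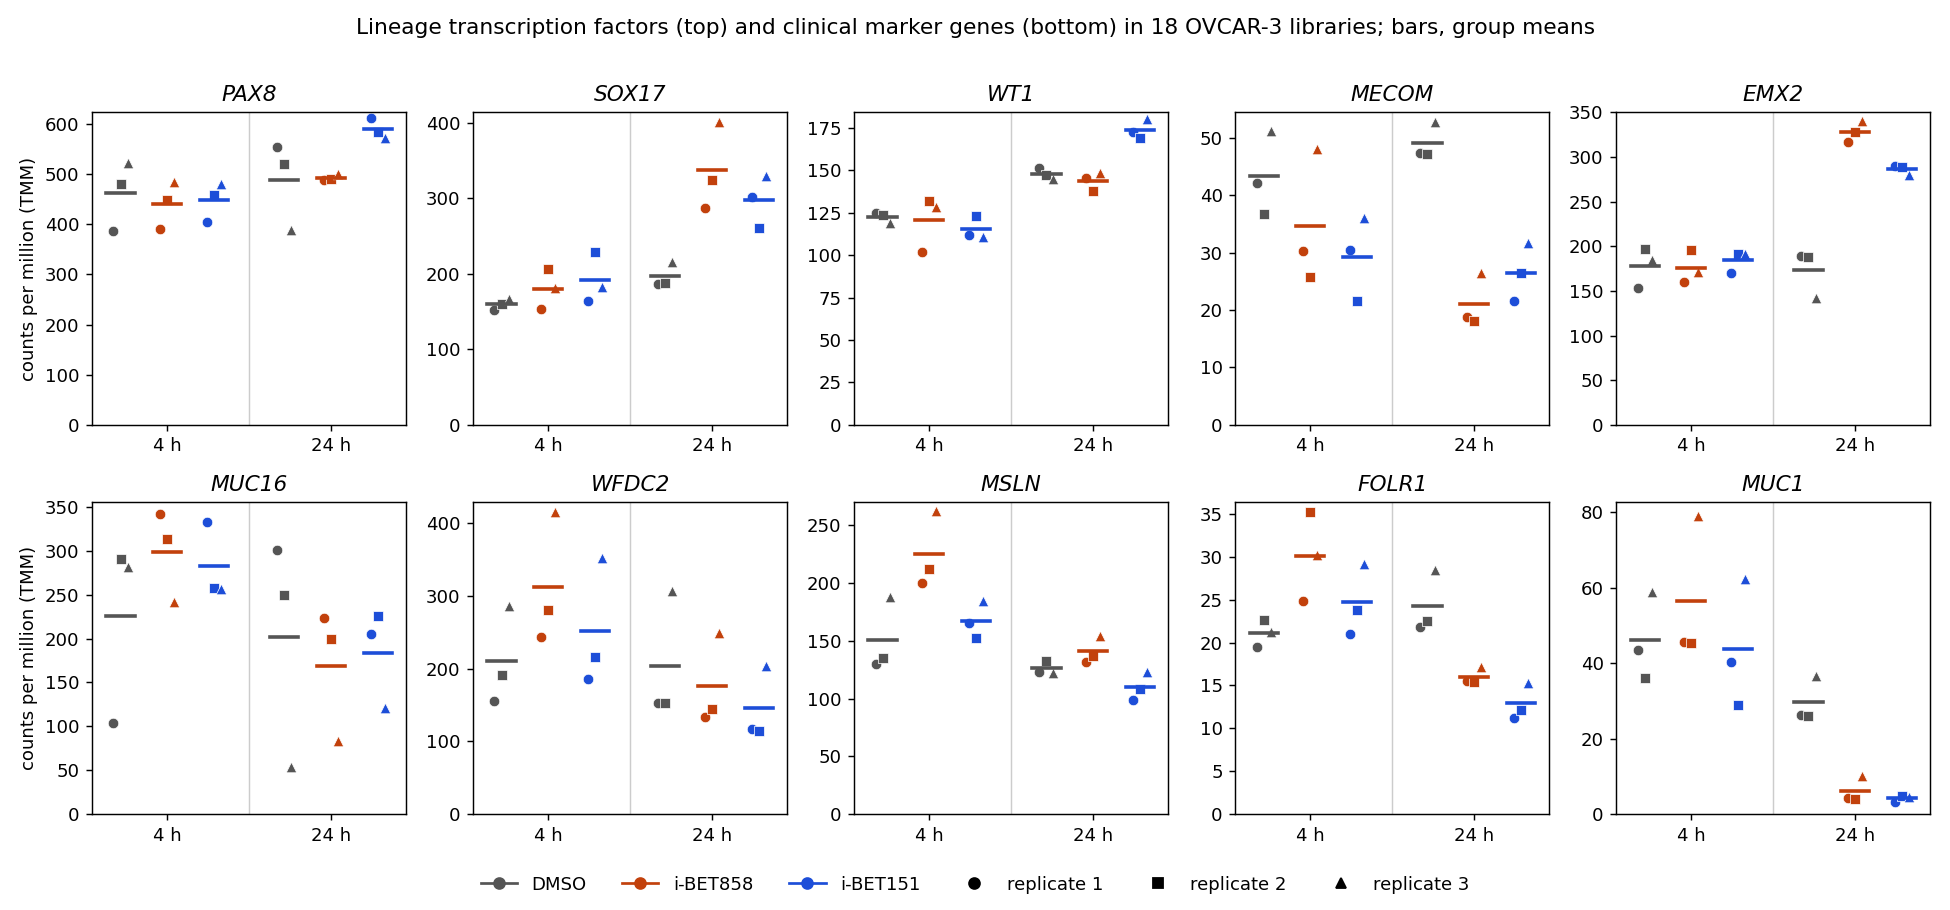
CPM of each member in all 18 libraries, transcription factors above and clinical markers below; symbols give the replicate, colours the treatment, horizontal bars the group means, and every axis starts at 0. MUC1 at 24 h lies between 3.17 and 9.97 in the treated libraries and between 26.1 and 36.7 in DMSO, and the EMX2 and SOX17 points of the treated libraries lie above all DMSO points at 24 h.

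The first question was how the members responded to each drug. A gene was called where the adjusted p was under 0.05 and the change at least 2-fold, and was said to rise or fall where the adjusted p alone was under 0.05. After 4 h no member was called in either drug (0 of 10), where 14.1% of all genes tested were called after i-BET858 and 7.1% after i-BET151. DESeq2 called none at 2-fold either. At an unadjusted p under 0.05 there were 2 members after i-BET858 and 1 after i-BET151, and by adjusted p alone 2 rose after i-BET858 (MSLN and FOLR1; 30.8% of all genes passed, 14.5% as higher) and none after i-BET151 (16.2% passed). After 24 h, 2 of 10 were called after i-BET858, both lower (MECOM and MUC1; 18.8% of all genes were called, 11.2% as lower), and 1 of 10 after i-BET151, also lower (MUC1; 13.7% of all genes, 8.09% as lower). By adjusted p alone 5 of 10 members passed in each drug, with SOX17 and EMX2 higher and MECOM, FOLR1 and MUC1 lower, against 41.7% of all genes after i-BET858 (20.5% higher and 21.3% lower) and 33.8% after i-BET151 (17.2% higher and 16.6% lower). Whether the shares of members differed from those of all genes was not tested. The median log2 change of the 10 members at 24 h was -0.17 after i-BET858 and -0.18 after i-BET151, beside -0.01 and 0.00 over all genes.

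**Figure D3:**
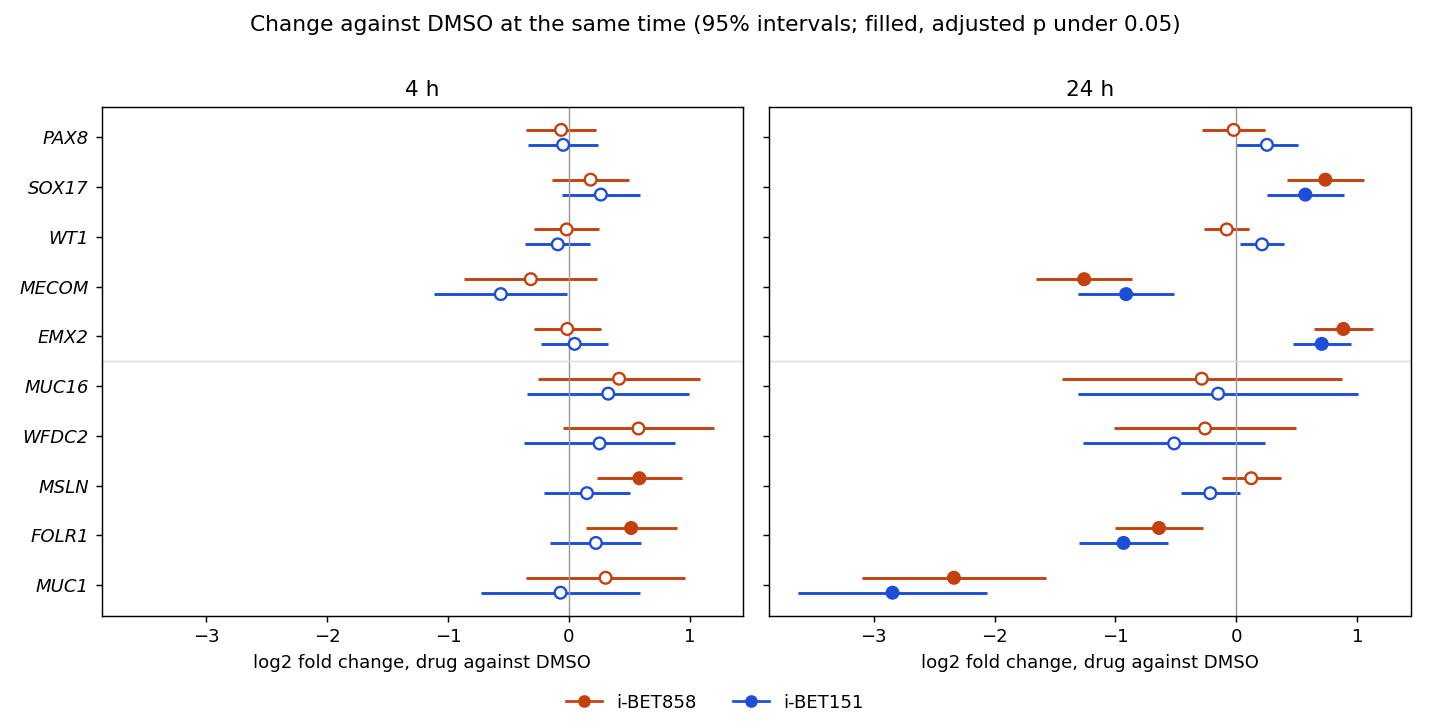
Log2 fold change of each member against DMSO of the same time, with 95% intervals from edgeR; orange is i-BET858, blue is i-BET151, and filled points have an adjusted p under 0.05. At 4 h only MSLN and FOLR1 after i-BET858 are filled, and at 24 h SOX17, MECOM, EMX2, FOLR1 and MUC1 are filled in both drugs.

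Among the transcription factors, MECOM, which encodes the zinc finger protein EVI1 and longer PR-domain forms, was the only one called. At 24 h it measured 47.4, 47.2 and 52.7 CPM in DMSO, 18.8, 18.1 and 26.5 after i-BET858 and 21.6, 26.4 and 31.6 after i-BET151. Every treated library lay below every DMSO library. MECOM fell 2.39-fold after i-BET858 (log2 -1.26 ± 0.18 SE, adjusted p = 0.000258) and 1.88-fold after i-BET151 (log2 -0.91 ± 0.18, adjusted p = 0.00265). With replicates 1 and 2 alone the changes were -1.39 (adjusted p = 4.36e-07) and -1.02 (adjusted p = 7.32e-06), and without the i-BET151 24 h library of replicate 3 the latter was -1.07, past 2-fold. At 4 h the DMSO libraries stood at 42.1, 36.6 and 51.2 CPM, those of i-BET858 at 30.3, 25.7 and 48.0 and those of i-BET151 at 30.4, 21.5 and 36.1. In each group replicate 3 was the highest, as in all 6 conditions, and the 4 h groups of i-BET151 and DMSO did not overlap. The log2 change at 4 h was -0.32 after i-BET858 (adjusted p = 0.382) and -0.56 after i-BET151 (adjusted p = 0.160). With the replicate number as a block MECOM passed in both (adjusted p = 0.0238 and 0.00156), as it did in replicates 1 and 2 alone (adjusted p = 0.0453 and 0.0274), and without the low-count filter it passed after i-BET151 (adjusted p = 0.0155). A distal upstream stretch of MECOM is printed above, but counts per gene do not tell which of its starts was used.

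EMX2, a homeobox gene of the developing urogenital tract and forebrain, rose at 24 h. It stood at 189, 188 and 142 CPM in DMSO, 316, 328 and 340.3 after i-BET858, and 290.4, 289 and 280.0 after i-BET151. All 6 treated libraries lay above the DMSO libraries, and the treated values varied less between replicates than those of DMSO. The rise was 1.85-fold after i-BET858 (log2 0.88 ± 0.11 SE, adjusted p = 0.000102) and 1.63-fold after i-BET151 (log2 0.71 ± 0.11, adjusted p = 0.000653). In replicates 1 and 2 alone it was 0.74 (adjusted p = 8.53e-07) and 0.58 (adjusted p = 9.49e-06). At 4 h EMX2 ran from 153 to 197 CPM over all 9 libraries, with a log2 change of -0.01 after i-BET858 and 0.05 after i-BET151 (adjusted p = 0.949 and 0.853).

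EMX2OS, the antisense partner, was measured beside it. At 24 h it was 237, 211 and 121 CPM in DMSO, 219, 198 and 148 after i-BET858 and 285, 275 and 212 after i-BET151. Its groups overlapped, and its log2 change was -0.04 after i-BET858 (adjusted p = 0.897) and 0.42 after i-BET151 (adjusted p = 0.179, or 0.00169 with the replicate block and 0.00804 in replicates 1 and 2 alone). At 4 h it was lower than DMSO in 8 of 9 pairs after i-BET858 (log2 -0.46, adjusted p = 0.104, or 0.0380 with the block) and in all 9 pairs after i-BET151 (log2 -0.58, adjusted p = 0.0740, or 0.0189 with the block). Its i-BET151 change was called higher at 24 h than at 4 h (log2 difference 1.02, adjusted p = 0.0459).

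SOX17 (ENSG00000164736.6, chr8:54457935-54460892, plus strand), a SOX-family factor of endoderm and Müllerian epithelium, also rose at 24 h. Its levels were 187, 188 and 216 CPM in DMSO, 287, 324 and 402 after i-BET858 and 302, 260.1 and 329 after i-BET151. The treated and DMSO groups did not overlap. It rose 1.67-fold after i-BET858 (log2 0.74 ± 0.14 SE, adjusted p = 0.00196) and 1.49-fold after i-BET151 (log2 0.57 ± 0.14, adjusted p = 0.0107). Replicates 1 and 2 alone gave 0.67 (adjusted p = 2.61e-05) and 0.55 (adjusted p = 0.000178). At 4 h its log2 change was 0.18 after i-BET858 (adjusted p = 0.397) and 0.26 after i-BET151 (adjusted p = 0.261), and the latter passed with the replicate block (adjusted p = 0.0468).

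PAX8 is the paired-box factor of Müllerian and renal epithelium, and over all 3 replicates it passed in no comparison without the block. At 24 h it measured 555, 519 and 389 CPM in DMSO, 488, 490.3 and 499 after i-BET858 and 612, 584 and 571 after i-BET151. The i-BET151 libraries lay above all others of that time, and the DMSO library of replicate 3 lay below them all. PAX8 changed by -0.02 on the log2 scale after i-BET858 (95% interval -0.28 to 0.23, adjusted p = 0.898) and by 0.25 after i-BET151 (95% interval -0.0049 to 0.51, adjusted p = 0.122, or 0.0368 with the block). In replicates 1 and 2 alone the i-BET858 change was -0.17 and passed (adjusted p = 0.0351), while that of i-BET151 was 0.12 (adjusted p = 0.129). At 4 h PAX8 lay between 387 and 522 CPM in all groups (adjusted p = 0.758 and 0.855).

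PAX8-AS1, the non-coding partner that overlaps its exons, was called higher in both drugs at 24 h. It rose from 5.03, 4.58 and 3.41 CPM in DMSO to 11.3, 7.17 and 13.9 after i-BET858 (2.42-fold, adjusted p = 0.0108) and to 7.10, 12.4 and 17.4 after i-BET151 (2.80-fold, adjusted p = 0.00630). Its groups did not overlap, and its level was low beside that of PAX8. The log2 changes in replicates 1 and 2 alone were 0.92 (adjusted p = 0.0101) and 0.97 (adjusted p = 0.00898), under 2-fold, so that neither was called.

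WT1, the zinc finger factor of the urogenital ridge, was the member with the smallest spread between replicates. Its within-group SD was 0.10 on the log2 scale, and 96.9% of genes varied more. At 24 h it measured 152, 147 and 145 CPM in DMSO, 145, 138 and 148 after i-BET858 and 172, 169 and 180.4 after i-BET151. Only the i-BET151 libraries lay clear of DMSO. The log2 change was -0.08 after i-BET858 (95% interval -0.26 to 0.11, adjusted p = 0.486) and 0.21 after i-BET151 (95% interval 0.03 to 0.40, adjusted p = 0.0748). The latter passed with the replicate block (adjusted p = 0.0302) and in DESeq2 (adjusted p = 0.0435). At 4 h the changes were -0.02 and -0.09 (adjusted p = 0.928 and 0.672). WT1-AS was low, with 9.46 CPM in the lowest DMSO library at 24 h, and changed by -0.20 and -0.06 (adjusted p = 0.352 and 0.813).

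Of the clinical markers, MUC1 showed the largest change of any member at 24 h. It fell from 26.2, 26.1 and 36.7 CPM in DMSO to 4.31, 3.92 and 9.97 after i-BET858 and to 3.17, 4.93 and 4.54 after i-BET151. The highest treated library held less than the lowest DMSO library in both drugs. In bulk RNA, fewer cells that express a gene and less of its RNA per cell cannot be told apart. The group means were 29.7 ± 6.06 CPM in DMSO, 6.07 ± 3.39 after i-BET858 and 4.21 ± 0.92 after i-BET151 (SD, n = 3). In the edgeR fit MUC1 fell 5.05-fold after i-BET858 (log2 -2.34 ± 0.34 SE, adjusted p = 0.000313) and 7.18-fold after i-BET151 (log2 -2.84 ± 0.35, adjusted p = 0.000169). With replicates 1 and 2 alone the log2 changes were -2.69 (adjusted p = 9.90e-08) and -2.75 (adjusted p = 1.72e-07). At 4 h MUC1 stood at 43.4, 36.0 and 58.8 CPM in DMSO, at 45.5, 45.2 and 79.0 after i-BET858 and at 40.4, 28.8 and 62.4 after i-BET151. The 4 h groups overlapped in both drugs, with log2 changes of 0.30 (95% interval -0.36 to 0.96, adjusted p = 0.493) and -0.07 (95% interval -0.73 to 0.59, adjusted p = 0.914). The MUC1 upstream stretch printed above is the one that holds TATAAA.

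FOLR1, the GPI-anchored folate receptor, rose at 4 h after i-BET858 and fell at 24 h after both drugs. At 4 h it measured 19.5, 22.6 and 21.3 CPM in DMSO, 24.9, 35.2 and 30.1 after i-BET858 and 21.1, 23.8 and 29.2 after i-BET151. The i-BET858 libraries lay above all DMSO libraries, and those of i-BET151 overlapped them. It rose 1.43-fold after i-BET858 (log2 0.51 ± 0.17 SE, adjusted p = 0.0410), and changed by 0.22 after i-BET151 (adjusted p = 0.437). The 4 h rise after i-BET858 was lost when any one of 6 libraries was left out, namely the 3 DMSO libraries (adjusted p = 0.140 without replicate 1, 0.0778 without replicate 2 and 0.0935 without replicate 3), replicates 2 and 3 of i-BET858 (0.153 and 0.0705) and replicate 2 of i-BET151 (0.0590). It was also lost when libraries were scaled by their totals (log2 0.35, adjusted p = 0.137).

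At 24 h FOLR1 measured 21.8, 22.5 and 28.4 CPM in DMSO, 15.5, 15.4 and 17.1 after i-BET858 and 11.2, 12.2 and 15.3 after i-BET151. Neither treated group overlapped DMSO. FOLR1 fell 1.56-fold after i-BET858 (log2 -0.64 ± 0.16 SE, adjusted p = 0.00912) and 1.91-fold after i-BET151 (log2 -0.93 ± 0.16, adjusted p = 0.00146). Replicates 1 and 2 alone gave -0.55 (adjusted p = 0.000617) and -0.96 (adjusted p = 1.31e-05). Without DMSO replicate 1 or i-BET151 replicate 3 the i-BET151 change was -1.01 and -1.09, past 2-fold.

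MSLN, which encodes the cell-surface protein mesothelin, rose at 4 h after i-BET858. It stood at 129.6, 135 and 188 CPM in DMSO, 200.2, 212 and 262 after i-BET858 and 166, 153 and 184 after i-BET151. The i-BET858 libraries lay above all DMSO libraries. The rise was 0.58 ± 0.16 (SE) on the log2 scale (adjusted p = 0.0175), and 0.64 in replicates 1 and 2 alone (adjusted p = 0.000585), while the change after i-BET151 was 0.15 (adjusted p = 0.60). The i-BET858 rise missed the threshold without DMSO replicate 1 (adjusted p = 0.0772), DMSO replicate 2 (0.0748) or i-BET858 replicate 3 (0.0560). At 24 h MSLN was 123, 133 and 122 CPM in DMSO, 132, 137 and 154 after i-BET858 and 98.7, 109 and 123 after i-BET151. All groups lay close together, with log2 changes of 0.12 (adjusted p = 0.408) and -0.22 (adjusted p = 0.161). The latter passed with the replicate block (adjusted p = 0.0463), in replicates 1 and 2 alone (log2 -0.34, adjusted p = 0.00221) and without i-BET151 replicate 3 (log2 -0.32, adjusted p = 0.0466).

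WFDC2, a secreted protease-inhibitor-like protein, passed or missed the threshold depending on how replicates were treated and on the low-count filter. At 4 h it measured 155, 191 and 285 CPM in DMSO, 243, 279.8 and 414 after i-BET858 and 185, 215 and 352 after i-BET151. Replicate 3 was the highest library in all 6 conditions. The groups overlapped, and the treated library exceeded the DMSO library of the same number in all 3 replicates of both drugs. Without the block the log2 change was 0.57 after i-BET858 (adjusted p = 0.156) and 0.25 after i-BET151 (adjusted p = 0.614), and with it 0.58 (adjusted p = 1.17e-05) and 0.24 (adjusted p = 0.0188). At 24 h the order was turned, with 152, 153 and 306 CPM in DMSO, 134, 145 and 248 after i-BET858 and 117, 115 and 204 after i-BET151. Each treated library was then below its DMSO library. The log2 change was -0.26 (adjusted p = 0.584) and -0.51 (adjusted p = 0.281) without the block, and -0.23 (adjusted p = 0.0283) and -0.48 (adjusted p = 0.000329) with it. In replicates 1 and 2 alone it was 0.60 at 4 h after i-BET858 (adjusted p = 0.00342) and -0.43 at 24 h after i-BET151 (adjusted p = 0.000222), while 0.20 at 4 h after i-BET151 (adjusted p = 0.292) and -0.16 at 24 h after i-BET858 (adjusted p = 0.0567) did not pass. Without the low-count filter, all 3 replicates and no block, it passed at 4 h after i-BET858 (adjusted p = 0.000772) and at 24 h after i-BET151 (adjusted p = 0.000661).

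MUC16, the giant mucin that carries CA125, was the most variable member. At 4 h it was 104, 290.3 and 282 CPM in DMSO, 342, 314 and 242 after i-BET858 and 333, 257 and 257 after i-BET151. At 24 h it was 301, 249.5 and 54.2 CPM in DMSO, 224, 199 and 83.8 after i-BET858 and 205, 225 and 120.4 after i-BET151. Replicate 3 was the lowest library in 5 of 6 conditions, and the DMSO library of replicate 1 was low at 4 h. Its within-group SD was 0.76 on the log2 scale, against a median of 0.31 over all genes. With all 3 replicates its change after i-BET858 at 4 h (log2 0.41, adjusted p = 0.345) passed without the low-count filter (0.40, adjusted p = 0.0292), and no other comparison with DMSO passed. With the filter, leaving out the low DMSO library of replicate 1 brought that change to 0.065 (adjusted p = 0.842). The intervals were wide, for example -1.45 to 0.87 around -0.29 for i-BET858 at 24 h. In replicates 1 and 2 alone MUC16 fell at 24 h by 0.41 on the log2 scale after i-BET858 (adjusted p = 0.00267) and by 0.39 after i-BET151 (adjusted p = 0.00415).

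The drugs were next compared with each other at the same dose and time. No member was called between i-BET858 and i-BET151 at 4 h (0 of 10; 0.209% of all genes tested) or at 24 h (0 of 10; 0.0641%), nor did any pass by adjusted p alone in edgeR (0.971% and 0.21% of all genes). At an unadjusted p under 0.05 there were 1 member at 4 h (MSLN) and 3 at 24 h (PAX8, WT1 and MSLN), and DESeq2 passed WT1 alone, at 24 h (adjusted p = 0.0231). At 24 h WT1 was lower after i-BET858 than after i-BET151 in all 9 pairs of libraries, with a log2 difference of -0.29 (95% interval -0.48 to -0.11, adjusted p = 0.198, or 0.0413 with the replicate block). PAX8 was likewise lower in all 9 pairs (log2 difference -0.28, 95% interval -0.53 to -0.02, adjusted p = 0.401), and passed in replicates 1 and 2 alone (adjusted p = 0.0192). MSLN was higher after i-BET858 in all 9 pairs at both times, by 0.43 at 4 h (95% interval 0.08 to 0.79, adjusted p = 0.284, or 0.00541 with the block) and by 0.34 at 24 h (95% interval 0.10 to 0.58, adjusted p = 0.261, or 0.0406 with the block). With the block, WFDC2 (log2 difference 0.34, adjusted p = 0.00852) and MUC1 (0.39, adjusted p = 0.0443) also passed at 4 h, and in replicates 1 and 2 alone WFDC2 (0.27, adjusted p = 0.0354) and FOLR1 (0.41, adjusted p = 0.0364) passed at 24 h. For MUC1 at 24 h the difference was 0.51 with an interval of -0.25 to 1.26 (0.05 in replicates 1 and 2 alone), and for MECOM -0.35 with an interval of -0.74 to 0.05, so that differences of either size could not be told from 0 at this number of replicates.

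**Figure D4:**
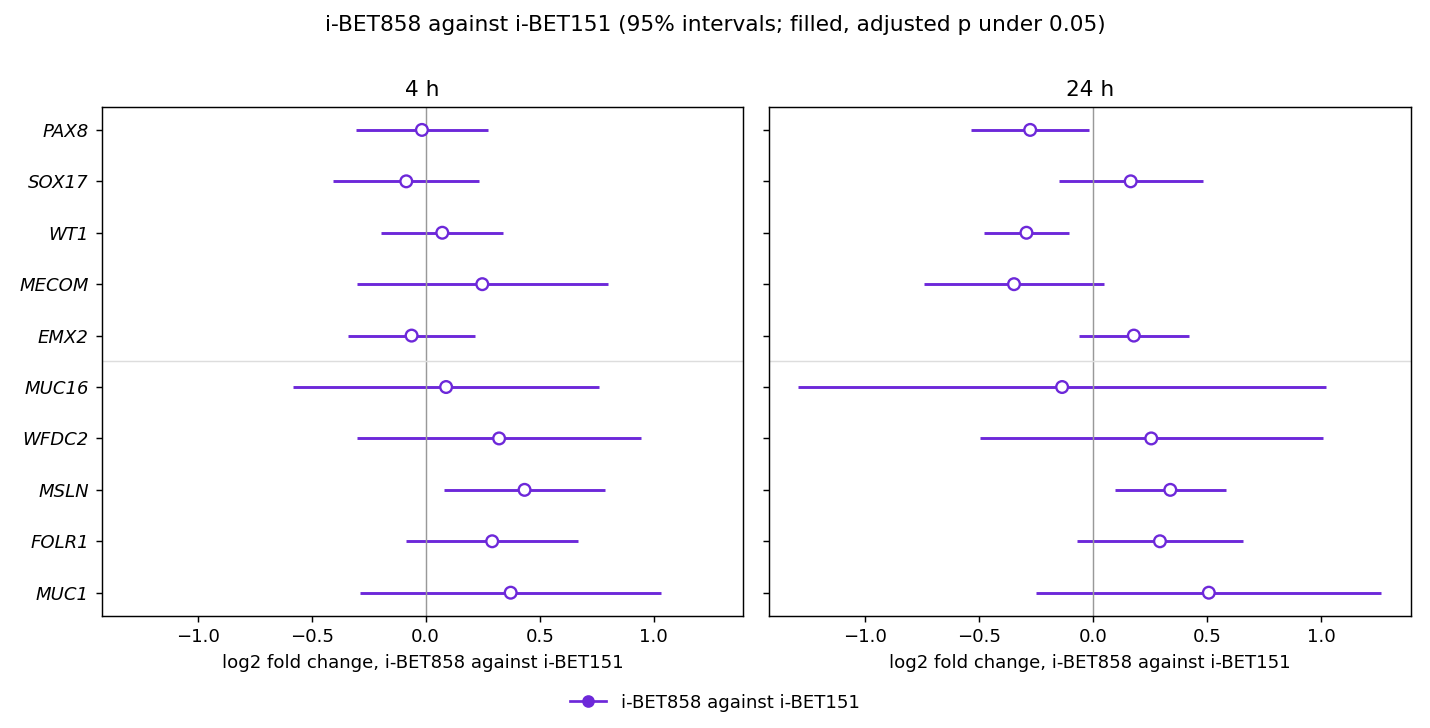
Log2 difference of each member between i-BET858 and i-BET151 at 4 h and 24 h, with 95% intervals from edgeR; values above 0 are higher after i-BET858, and no point is filled because no adjusted p was under 0.05. The intervals of WT1, PAX8 and MSLN at 24 h and of MSLN at 4 h do not reach 0, and that of MUC16 is the widest at 24 h.

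Whether the response differed between 4 h and 24 h was tested as a drug-by-time interaction over all 18 libraries. For i-BET858, 2 of 10 members were called, both with a lower change at 24 h (FOLR1 and MUC1; 15.1% of all genes tested, 8.21% as lower), and for i-BET151 the called members were again 2 of 10, FOLR1 and MUC1 (6.7%, 4.2% as lower). By adjusted p alone 5 members passed for i-BET858 (2 higher and 3 lower; 27.2% of all genes, 14.6% higher and 12.6% lower) and 3 for i-BET151 (1 higher and 2 lower; 13.8% of all genes, 6.99% higher and 6.82% lower). The difference for MUC1 was -2.59 ± 0.48 SE on the log2 scale for i-BET858 (adjusted p = 0.000615) and -2.75 ± 0.49 for i-BET151 (adjusted p = 0.00124). For FOLR1 it was -1.11 ± 0.23 (adjusted p = 0.00181) and -1.14 ± 0.24 (adjusted p = 0.00391). Without the DMSO 24 h library or the i-BET858 4 h library, of replicates 3 and 2 respectively, the FOLR1 difference for i-BET858 was -0.98 in either case, under 2-fold. EMX2 passed by adjusted p alone in both drugs, with 0.94 ± 0.17 (adjusted p = 0.000512) and 0.68 ± 0.17 (adjusted p = 0.0132), and its log2 changes at 4 h had been -0.01 and 0.05.

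SOX17 and MECOM passed in the time comparison for i-BET858. For i-BET151 their differences were 0.33 (adjusted p = 0.335) and -0.33 (adjusted p = 0.569), and whether the drugs differed in this was not tested. For i-BET858 the SOX17 difference was 0.60 ± 0.21 (adjusted p = 0.0376). It missed the threshold in DESeq2 (adjusted p = 0.0539), with DESeq2 size factors in edgeR (0.0666), with at least 10 counts in every library (0.0650), in replicates 1 and 2 alone (0.0857) and without any one of 7 libraries: replicates 2 and 3 of DMSO at 4 h (0.0641 and 0.0686), replicates 1 and 3 of i-BET858 at 4 h (0.121 and 0.0770), replicates 1 and 2 of DMSO at 24 h (0.0759 and 0.0758) and replicate 3 of i-BET858 at 24 h (0.106). The MECOM difference was -0.90 ± 0.32 (adjusted p = 0.0473), and -0.88 in replicates 1 and 2 alone (adjusted p = 0.00495). It missed the threshold without any one of 10 libraries: replicates 1 and 2 of DMSO at 4 h (0.0865 and 0.111), replicate 1 of i-BET151 at 4 h (0.0560), replicate 3 of i-BET858 at 4 h (0.136), the 3 DMSO libraries at 24 h (0.0655, 0.0667 and 0.0867), replicate 2 of i-BET151 at 24 h (0.0574) and replicates 1 and 2 of i-BET858 at 24 h (0.106 and 0.107). WFDC2 differed between the times by -0.78 after i-BET858 (adjusted p = 0.249) and by -0.74 after i-BET151 (adjusted p = 0.341), and passed in both with the replicate block (adjusted p = 3.21e-05 and 0.000222), in replicates 1 and 2 alone (0.00187 and 0.00988) and without the low-count filter (0.00126 and 0.0043). MSLN passed for i-BET858 with the block (-0.43, adjusted p = 0.0154) and without DMSO replicate 3 of 4 h (-0.60, adjusted p = 0.0204). In replicates 1 and 2 alone MSLN passed for both drugs (-0.58, adjusted p = 0.00185, and -0.59, adjusted p = 0.00347), where all replicates gave -0.35 for i-BET151 (adjusted p = 0.286). PAX8, WT1 and MUC16 passed in neither drug, with or without the block, although MUC16 passed for i-BET858 in replicates 1 and 2 alone (-1.13, adjusted p = 0.0404) and without the low-count filter (-0.64, adjusted p = 0.0101).

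**Figure D5:**
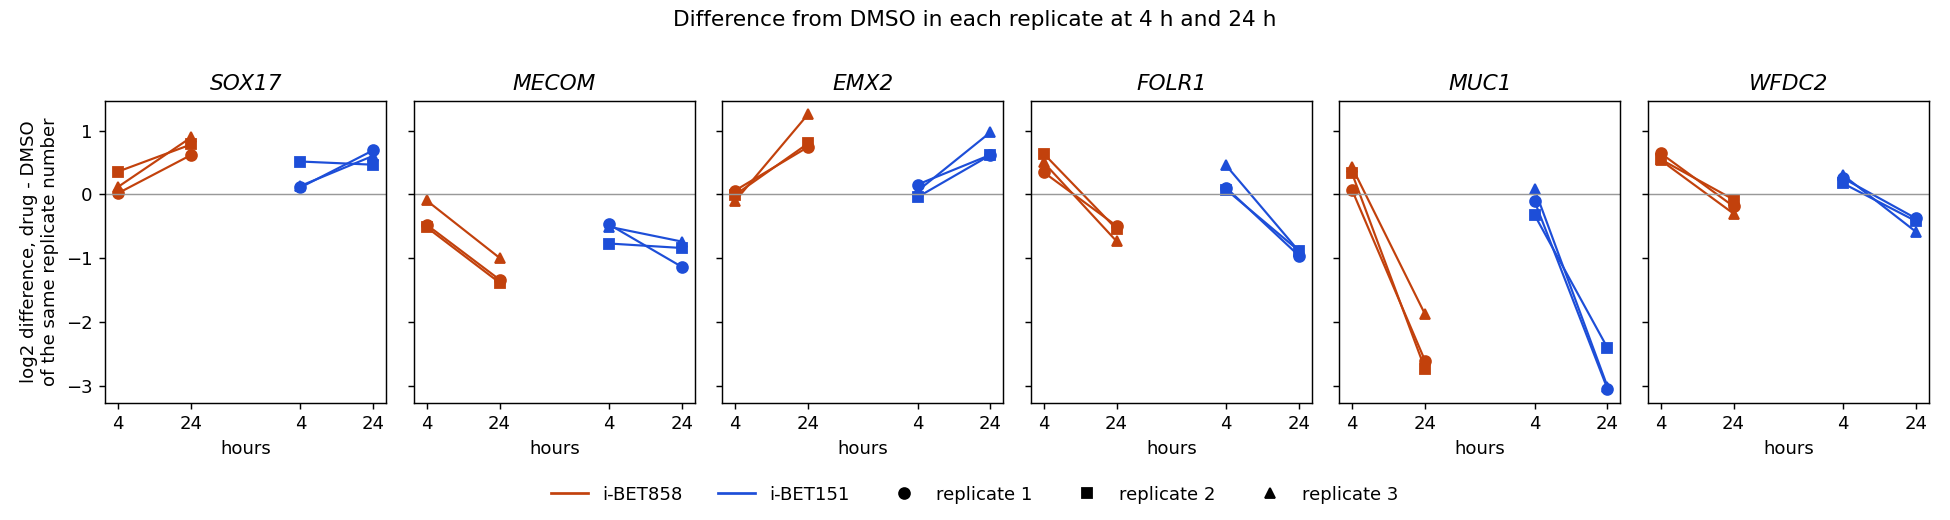
Log2 difference between each treated library and the DMSO library of the same replicate number at 4 h and 24 h, for 6 members; orange is i-BET858, blue is i-BET151, and each line joins the same replicate number. All 3 lines of MUC1, FOLR1 and WFDC2 run downward and those of EMX2 upward in both drugs.

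Other regulators of Müllerian and epithelial identity were measured beside the members. Of 16 such genes 13 were tested at both times, while others, PAX2 and PGR among them, stayed under 1 CPM in all libraries. At 24 h, 2 were called higher and 2 lower in each drug, and 9 passed by adjusted p alone after i-BET858 and 7 after i-BET151. Over all genes tested 18.8% and 13.7% were called, and 41.7% and 33.8% passed by adjusted p alone. The median log2 change was -0.28 after i-BET858 and -0.09 after i-BET151. EHF, an epithelial ETS factor, fell from 148 ± 55.3 CPM in DMSO to 24.9 ± 22.3 after i-BET858 (6.16-fold, adjusted p = 0.00780) and 24.0 ± 17.7 after i-BET151 (6.29-fold, adjusted p = 0.00946). BHLHE41, a basic helix-loop-helix repressor, fell 3.46-fold and 2.32-fold. LHX1, a LIM homeobox gene of the urogenital tract, rose 3.36-fold and 2.91-fold, and TFAP2A, an AP-2 factor, rose 2.09-fold and 2.04-fold (adjusted p of these 6 changes at most 0.000122).

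At 4 h, when no member was called, EHF and BHLHE41 were already lower in both drugs. Of the 13 regulators tested, 1 was called higher and 2 lower after i-BET858 and 2 lower after i-BET151, with 7 and 6 past the adjusted p alone (over all genes, 14.1% and 7.1% called, 30.8% and 16.2% by adjusted p alone). BHLHE41 fell 5.37-fold after i-BET858 and 3.60-fold after i-BET151 (adjusted p = 1.46e-05 and 0.000223), and EHF 2.92-fold and 3.21-fold (adjusted p = 0.0259 and 0.0308). SOX9 was the one regulator called higher, 2.40-fold after i-BET858 (adjusted p = 0.000134).

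Among 24 further surface and secreted markers of serous carcinoma, 23 were tested. At 24 h none was called higher, and 3 were called lower after i-BET858 and 6 after i-BET151, with 8 and 12 past the adjusted p alone, beside the same shares over all genes (18.8% and 13.7% called, 41.7% and 33.8% by adjusted p alone). The median log2 change was -0.43 and -0.57. VTCN1, the checkpoint ligand B7-H4, had the largest fall, from 30.4 ± 5.44 CPM in DMSO to 1.12 ± 0.55 after i-BET858 (28.3-fold, adjusted p = 2.77e-05) and 1.32 ± 0.98 after i-BET151 (23.6-fold, adjusted p = 6.31e-05). KLK6, a kallikrein protease, fell 2.41-fold and 4.31-fold, and SPON1 (spondin 1), a matrix protein, 2.07-fold after i-BET858 from 3141 ± 137 CPM. CP (ceruloplasmin) was called lower after i-BET151, from 190 ± 57.7 CPM in DMSO to 51.3 ± 35.5 (3.76-fold, adjusted p = 0.0262). KLK8 was also called lower after i-BET151, 2.04-fold (adjusted p = 0.0348). At 4 h IGF2BP3, an RNA-binding protein, was the one marker called, 2.10-fold lower after i-BET858 (adjusted p = 0.00416), where 14.1% of all genes were called after i-BET858 and 7.1% after i-BET151. Of 17 genes in the families of the members 7 were tested at 4 h, with 1 called higher after i-BET858, and 6 at 24 h, with 1 called lower after i-BET858 and 2 after i-BET151. MUC15, another transmembrane mucin, was called lower at 24 h in both drugs, from 6.81 ± 0.79 CPM to 0.41 ± 0.06 and 0.76 ± 0.35 (adjusted p = 1.30e-05 and 7.81e-05), while 12 of these 17 family genes, MUC4, MUC5AC, FOLR2 and EMX1 among them, stayed under 1 CPM throughout.

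For each member the genes whose log2 CPM ran most nearly parallel over the 18 libraries were listed among 12444 genes, as a description. The points share 6 conditions and 3 replicate numbers, so that a correlation reflects both. MUC1 ran closest to MGST1 (r = 0.98) and PRSS12 (0.98), EMX2 to NBPF1 and TXLNA (both 0.97), and FOLR1 to CTSC (0.97) and NFKBIA (0.95). Among the nearest genes were LRFN4 for MECOM (0.95) and the ribosomal protein gene RPL32 for WFDC2 (0.96). For SOX17 the nearest were SMIM10L2B and PELI3 (both 0.94), for MSLN TLE3 (0.94) and SPSB1 (0.93), for WT1 CERK (0.92) and AMMECR1 (0.89), for MUC16 KIF5A (0.89) and ITGA7 (0.88), and for PAX8 CIT (0.88) and MAVS (0.87). With replicate means removed, SMIM10L2B and PELI3 ranked 24 and 27 for SOX17, and RPL32 ranked 55 for WFDC2. CIT for PAX8, CERK for WT1 and CTSC for FOLR1 then ranked 1. The other genes named ranked from 2 (TXLNA and LRFN4) to 11 (PRSS12). Between members, SOX17 and EMX2 had the highest correlation (0.89) and EMX2 and MUC1 the lowest (-0.89).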

How the data were processed

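Per the labels and the study's methods, poly-A libraries of OVCAR-3 cells were sequenced as 150-base read pairs, and the authors aligned reads with STAR to GRCh38 and deposited whole-number counts per Ensembl gene in 2 tables, 1 per time point. The annotation and the strand column used are not given in the sources used here. Table columns name treatment and replicate, and the time was taken from the table itself. The 10 members and all lists were chosen with earlier results of these data known.

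Identifiers were matched without version to GENCODE 44 (58472 of 58825). Genes kept by filterByExpr were tested with edgeR 4.0.16 in R 4.3.3 (TMM, quasi-likelihood) in 9 libraries per time point, or all 18 for interactions and time in DMSO, with Benjamini-Hochberg adjustment. Tests used 17192 genes at 4 h, 17157 at 24 h and 18154 over both. Errors of fold changes are SE, of levels SD. Members were all named, and from each other list at most 4 called genes per comparison, with the largest change and an average log2 CPM of at least 0. Some genes that these rules name are not reported here. Scripts were tested on simulated data.

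Same-numbered libraries of different groups tended to deviate together from their group means. Their correlations ran from 0.125 to 0.344 (median 0.274) at 4 h and from 0.145 to 0.330 (median 0.263) at 24 h. Those of differently numbered libraries ran from -0.311 to 0.216 (median -0.204) and from -0.304 to 0.285 (median -0.232), so the ranges overlapped. The main tests used the group only and no pairing. The fit with the replicate block was an alternative and is given where it changed a call. Alternatives were DESeq2 1.42.0, other scalings and filters, other sample sets, adjusted p alone, and leaving out replicate 3 or each library in turn. With 27323969 to 46299994 counts per library, 1 count was well under 1 CPM.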

Additional observations from a re-analysis of the deposited data

Results flagged for a closer look

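The interaction test (edgeR quasi-likelihood, Benjamini-Hochberg adjustment over 18154 genes) found changes that differed between 4 h and 24 h by adjusted p alone. These were 5 of 10 members after i-BET858 and 3 of 10 after i-BET151, beside 27.2% and 13.8% of all genes. Whether the shares of members differed from those of all genes was not tested. On the log2 scale, the 24 h effect of i-BET858 exceeded the 4 h effect by 0.60 for SOX17 (adjusted p = 0.0376) and 0.94 for EMX2 (adjusted p = 0.000512). It differed by -0.90 for MECOM (adjusted p = 0.0473), -1.11 for FOLR1 (adjusted p = 0.00181) and -2.59 for MUC1 (adjusted p = 0.000615). The SOX17 difference missed the threshold under 4 of 7 alternatives and without any one of 7 libraries. That of MECOM missed it without any one of 10 libraries. For i-BET151 the differences were 0.68 for EMX2 (adjusted p = 0.0132), -1.14 for FOLR1 (adjusted p = 0.00391) and -2.75 for MUC1 (adjusted p = 0.00124).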

How the results depend on the processing

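The calls at 24 h by adjusted p (SOX17, EMX2, MECOM, FOLR1 and MUC1 in both drugs) passed under every alternative run and without any 1 library. By adjusted p alone, with no fold limit, the members called were 2 rather than 0 for i-BET858 at 4 h, 5 rather than 2 for i-BET858 at 24 h, 5 rather than 1 for i-BET151 at 24 h and 5 rather than 2 for the i-BET858 change between times. For i-BET151 at 24 h, replicates 1 and 2 alone gave 2 members called, and leaving out 1 library gave 1 to 3. For the i-BET858 change between times leaving out 1 library gave 1 to 3. The replicate block, an alternative to the main fit, was run because same-numbered libraries tended to deviate together. It raised the genes called between the drugs from 36 to 118 at 4 h and from 11 to 61 at 24 h. In DMSO over time it raised them from 1 to 28, and it changed no member call beyond those given beside the results. Genes called between the drugs at 4 h were 57 with total library sizes, 78 without a low-count filter, 68 in replicates 1 and 2, 79 in DESeq2, 62 with all 18 libraries in 1 fit, 0 with only the 2 drug groups (1708 at an unadjusted p under 0.05) and 0 to 33 without 1 library. At 24 h they were 4 with DESeq2 size factors, 17 with total library sizes, 61 without a filter, 104 in replicates 1 and 2, 71 in DESeq2, 1 with only the drug groups and 1 to 16 without 1 library. Replicates 1 and 2 alone gave 1881 genes rather than 1220 for i-BET151 at 4 h, 2072 rather than 1217 for its change between times and 17 rather than 1 in DMSO over time, where DESeq2 gave 17, no filter 29 and leaving out 1 library 0 to 2. By adjusted p alone the counts against DMSO were 5303 and 2791 at 4 h and 7158 and 5797 at 24 h. Total library sizes moved the median of all genes for i-BET858 at 4 h from 0.02 to -0.14, and the genes called lower from 1204 of 2421 to 1650 of 2642. Of 1830 alternative values of the 90 log2 changes, 1677 kept direction and side of the threshold, 48 newly passed, 31 no longer passed and 74 changed sign. The cause of each change was not tested. The lowest count of a member in any library was 130. The log2 changes given next turned sign under the setting named, and none of these values passed the threshold. With at least 10 counts in every library, the value was 0.0016 for WT1 (i-BET858 at 4 h), 0.0068 for EMX2 (i-BET858 at 4 h) and -0.0011 for PAX8 (the i-BET858 change between times). With DESeq2 size factors, the value was 0.0021 for EMX2 (i-BET858 at 4 h). In replicates 1 and 2 alone, the value was 0.024 for EMX2 (i-BET858 at 4 h), -0.0029 for WT1 (i-BET858 against i-BET151 at 4 h), -0.10 for PAX8 (the i-BET858 change between times), 0.0011 for WT1 (the i-BET858 change between times), 0.11 for EMX2 (24 h against 4 h in DMSO) and 0.48 for MUC16 (24 h against 4 h in DMSO). With DESeq2, the value was 0.0021 for EMX2 (i-BET858 at 4 h). With only the 2 groups compared, the value was 0.0014 for EMX2 (i-BET858 at 4 h). With total library sizes, the value was -0.015 for EMX2 (i-BET151 at 4 h), -0.032 for WT1 (i-BET858 against i-BET151 at 4 h), -0.0080 for MUC16 (i-BET858 against i-BET151 at 4 h), 0.014 for WT1 (the i-BET858 change between times) and 0.0048 for EMX2 (24 h against 4 h in DMSO). Without a low-count filter, the value was 0.0021 for PAX8 (i-BET858 at 24 h) and 0.012 for WT1 (the i-BET858 change between times). With all 18 libraries in 1 fit, the value was 0.014 for PAX8 (i-BET858 at 24 h). With the replicate block, the value was 0.097 for MUC16 (i-BET151 at 24 h). Leaving out 1 library at a time also turned the sign of some small log2 changes, none with an adjusted p under 0.638. For i-BET858 at 4 h it moved PAX8 from -0.19 to 0.023, WT1 from -0.089 to 0.090, EMX2 from -0.12 to 0.053 and MUC1 from -0.019 to 0.51. For i-BET151 at 4 h it moved PAX8 from -0.16 to 0.047, EMX2 from -0.050 to 0.12, MUC16 from -0.020 to 0.55, WFDC2 from -0.075 to 0.53 and MUC1 from -0.41 to 0.16. For i-BET858 against i-BET151 at 4 h it moved PAX8 from -0.092 to 0.066, SOX17 from -0.19 to 0.063, MECOM from -0.062 to 0.43, EMX2 from -0.15 to 0.0036 and MUC16 from -0.016 to 0.22. For i-BET858 at 24 h it moved PAX8 from -0.13 to 0.077, MUC16 from -0.72 to 0.12 and WFDC2 from -0.57 to 0.20. For i-BET151 at 24 h it moved MUC16 from -0.59 to 0.26. For i-BET858 against i-BET151 at 24 h it moved MUC16 from -0.39 to 0.19, WFDC2 from -0.078 to 0.60 and MUC1 from -0.043 to 0.74. For the i-BET858 change between times it moved PAX8 from -0.056 to 0.20 and WT1 from -0.14 to 0.049. For 24 h against 4 h in DMSO it moved PAX8 from -0.037 to 0.22, EMX2 from -0.14 to 0.085, MUC16 from -0.57 to 0.29 and WFDC2 from -0.46 to 0.23.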

Other observations

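Some markers of other epithelia and cell types were present in these cells and changed with treatment. FOXJ1, the master regulator of motile cilia and a marker of ciliated fallopian tube cells, fell at 24 h from 8.32 ± 1.53 CPM in DMSO to 0.98 ± 0.58 after i-BET858 (8.64-fold, adjusted p = 0.000311, edgeR) and 1.00 ± 0.31 after i-BET151 (8.38-fold, adjusted p = 0.000527). CAPS (calcyphosine), another ciliated cell marker, fell 2.84-fold after i-BET151 (adjusted p = 0.000505), and MCIDAS, a regulator of multiciliation, fell 2.70-fold at 4 h (adjusted p = 0.0196) and 2.34-fold at 24 h (adjusted p = 0.0428) after i-BET858 from levels of 2.31 and 1.64 CPM. TPPP3, of the same list, rose 2.12-fold at 4 h after i-BET858 (to 4.25 ± 0.54 CPM, adjusted p = 0.0310). Of the 10 ciliated cell markers tested, 2 were called lower and 0 higher at 24 h in each drug, with 5 and 3 past the adjusted p alone by edgeR (over all genes, 18.8% and 13.7% called, 41.7% and 33.8% by adjusted p alone), and the list's summed level overlapped between DMSO (63.5 to 78.4 CPM), i-BET858 (69.3 to 77.5) and i-BET151 (67.0 to 69.9). NKX2-1, a thyroid and lung factor, fell from 9.87 ± 2.39 CPM to 1.11 ± 0.70 and 1.41 ± 0.60 at 24 h (adjusted p = 0.000376 and 0.00107).

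Among genes that rose at 4 h, GATA6, a zinc finger factor, went from 1.92 ± 0.23 CPM in DMSO to 7.71 ± 0.24 after i-BET858 and 4.65 ± 0.33 after i-BET151 (adjusted p = 4.48e-05 and 0.00204, edgeR). KDR, the VEGF receptor of endothelial cells, rose from 1.08 ± 0.16 CPM to 8.62 ± 3.11 and 4.88 ± 2.33 (adjusted p = 0.000198 and 0.00336), while the endothelial genes PECAM1 and CDH5 stayed under 1 CPM in every library.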
